A study of Mus musculus with 8 samples.

Results

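The open chromatin around T, Foxa2 and Noto, the transcription factor genes that define the node and notochord, was examined in E9.5 mouse tailbuds. The assay was ATAC-seq, which uses Tn5 transposase to cut accessible DNA and add sequencing adapters. There were 4 libraries from wild-type embryos (WT/WT) and 4 from homozygous Danforth mutants (Sd/Sd, short tail), all on the outbred CD-1 background. Tailbuds of 2 mice were pooled where material was short and the labels do not say in which libraries, so p-values measure the spread between libraries. Members were chosen by position on the mm9 build. They are the counted regions that overlap 8.53 to 8.75 Mb of chromosome 17 for T, 147600000 to 148100000 of chromosome 2 for Foxa2, and 85.32 to 85.43 Mb of chromosome 6 for Noto. The rule took 19 of the 26620 counted regions, 3 in the T window, 14 in the Foxa2 window and 2 in the Noto window. Levels are CPM, the count scaled to the library's total, and library totals over the regions ran from 2873918 to 4180434. The WT libraries had 18682 to 24664 peaks over the genome and the Sd/Sd libraries 21306 to 30387. Sd/Sd replicate 4, the deepest, stood apart, with a chi-square per region of 2.64 to 3.47 against the other libraries, which ran from 2.15 to 2.53 among themselves.

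T (brachyury) encodes a T-box factor needed for posterior mesoderm and for the notochord, the midline rod that patterns the neural tube, gut and somites. Foxa2 encodes a forkhead factor of the node, notochord, floor plate and endoderm. Noto encodes a homeobox factor of the node and posterior notochord, and in the mouse its expression depends on the other two genes. Danforth's short tail arises from a retrotransposon insertion near Ptf1a, and the notochord of homozygous embryos is known to break up. A tailbud library mixes many cell types, so fewer notochord cells and less open chromatin per cell cannot be told apart.

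No mm9 annotation was used, so positions of genes among the regions are background knowledge, and exon, intron or UTR labels are not given. In the RefSeq gene order of GRCm38.p6, T lies between LOC115486424 and Pde10a, Foxa2 between the non-coding gene 9030622O22Rik and Gm14108, and Noto between Rab11fip5 and Smyd5 (leaving aside Mir705 and 4933423K11Rik), with Pradc1, Cct7 and Fbxo41 beyond Smyd5. A window therefore also holds regions of neighbouring genes.

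The promoters are shown because the first question at each gene is whether its start is open. RefSeq holds 1 start for T, 1 for Noto and 3 for Foxa2, of which the one farthest upstream is printed. Each sequence runs 5′ to 3′ from 250 bases before to 50 bases after the start, and its coordinates are those of GRCm38.p6, which cannot be set against the mm9 positions used for the regions. Capitals mark matches on either strand. The motifs searched were the TATA box as TATAAA, the GC box as GGGCGG, the CCAAT box, the forkhead motif TGTTTAC and the T-box binding motif TCACACCT. To these came the TCF and LEF motif CTTTGAT with its variant CTTTGAA, and the T-box core AGGTGT. The variant and the T-box core were added after the sequences had been read.
T, chr17:8434173-8434472, plus strand: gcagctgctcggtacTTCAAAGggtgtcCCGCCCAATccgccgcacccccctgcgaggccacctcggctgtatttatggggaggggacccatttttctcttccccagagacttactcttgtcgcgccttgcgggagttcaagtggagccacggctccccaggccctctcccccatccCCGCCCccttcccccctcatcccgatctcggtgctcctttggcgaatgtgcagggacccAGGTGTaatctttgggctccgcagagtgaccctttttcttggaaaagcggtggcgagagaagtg
Foxa2, chr2:148046920-148047219, minus strand: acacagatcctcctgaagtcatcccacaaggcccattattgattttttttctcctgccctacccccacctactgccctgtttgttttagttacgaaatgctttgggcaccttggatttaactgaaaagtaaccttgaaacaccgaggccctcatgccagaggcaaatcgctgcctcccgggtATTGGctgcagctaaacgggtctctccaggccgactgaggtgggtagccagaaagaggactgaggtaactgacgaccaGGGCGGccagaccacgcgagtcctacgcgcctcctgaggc
Noto, chr6:85423636-85423935, plus strand: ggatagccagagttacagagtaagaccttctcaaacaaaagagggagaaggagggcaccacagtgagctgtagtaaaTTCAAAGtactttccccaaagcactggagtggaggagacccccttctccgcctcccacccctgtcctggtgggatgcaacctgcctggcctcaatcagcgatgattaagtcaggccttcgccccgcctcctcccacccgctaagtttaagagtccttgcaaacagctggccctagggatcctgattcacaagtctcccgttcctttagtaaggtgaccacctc

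The T promoter held 2 GC boxes, 1 of which overlaps the CCAAT box, with a CTTTGAA match before them and an AGGTGT match just before the start. Its GC content was 61.7%, against a median of 52.7% over 32851 promoters. The printed Foxa2 promoter (54.3% GC) held 1 GC box and 1 CCAAT box, and the Noto promoter (54.0% GC) held 1 CTTTGAA match alone. Over all promoters of this length, a GC box was found in 35.66%, a CCAAT box in 37.41%, CTTTGAA in 5.14% and AGGTGT in 13.74%. TATAAA was found in 13.62%, TGTTTAC in 3.65%, TCACACCT in 1.28% and CTTTGAT in 3.73%, and none of these was in the 3 printed windows. Of the other Foxa2 starts, 1 held 2 GC boxes, and the other a TATA box, a GC box and a CTTTGAT match. A match is a description of letters, and its absence says nothing of a factor.

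The regions of the T window were weakly open for their length. The 3 counted regions of the window covered 1.164% of 220 kb, where a stretch of that width on the autosomes held a median of 2 (quartiles 1 and 4). The region from 8626336 to 8627201 lies, by background knowledge, just before the start of T. Its CPM was 14.2, 18.9, 17.1 and 19.3 for WT replicates 1 to 4 and 19.4, 28.80, 21.7 and 12.4 for Sd/Sd, from 49 to 89 counts per library. The Sd/Sd libraries held both the highest and the lowest value, and the genotypes overlapped. The means were 17.4 ± 2.33 in WT and 20.6 ± 6.74 in Sd/Sd (SD, n = 4 each), a log2 fold change of 0.24 (SE 0.20, 95% interval -0.16 to 0.63) with an adjusted p = 0.918 (edgeR quasi-likelihood test, Benjamini-Hochberg over all regions). Single libraries moved this value, from 0.037 without Sd/Sd replicate 2 to 0.42 without Sd/Sd replicate 4. Peaks were called here in 1 of 4 WT and 3 of 4 Sd/Sd libraries, with a fold enrichment of 2.66 to 3.18, the peak caller's own value.

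The other T regions lie on either side. The region from 8564487 to 8565904 had the highest CPM of the window, at 26.9, 25.2, 29.9 and 24.0 for WT replicates 1 to 4 and 30.3, 21.0, 27.4 and 27.5 for Sd/Sd. The WT libraries lay within the wider range of the Sd/Sd libraries, and the log2 fold change was 0.017 (95% interval -0.30 to 0.34, adjusted p = 0.997 in edgeR). At the far end, the region from 8701239 to 8701514 was short, at 276 bp, and low, at 10.7, 8.94, 8.35 and 7.91 CPM in WT and 8.61, 11.97, 5.73 and 5.02 in Sd/Sd. Its log2 fold change was -0.21 (95% interval -0.82 to 0.39, adjusted p = 0.971 in edgeR), from 19 to 37 counts per library. It was -0.48 without Sd/Sd replicate 2 and -0.042 without Sd/Sd replicate 4. Apart from a single peak in Sd/Sd replicate 3 (8534193 to 8534558), no library had a peak in the window outside these 3 regions. The stretches of 60.4 kb before and 74.0 kb after the region at T had no peak in any of the 8 libraries.

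The Foxa2 window was dense in counted regions. It held 14 over 500 kb, more than 95.3% of stretches of that width, whose median was 5 (quartiles 2 and 8). Of the 14, 0 had a peak in all 8 libraries, where 41.3% of all regions did, and 8 lay below the median CPM of all regions. A pair of the window's regions lies, by background knowledge, at the start of the gene and just upstream. Which of the RefSeq starts of Foxa2 they hold was not determined. The region from 147871592 to 147872384 had 40.9, 33.4, 33.4 and 39.8 CPM for WT replicates 1 to 4 and 52.5, 42.1, 34.7 and 40.9 for Sd/Sd. Sd/Sd replicate 1 was the highest, and the other Sd/Sd libraries lay within or just above the WT range. The means of 36.9 ± 4.02 in WT and 42.5 ± 7.39 in Sd/Sd (SD, n = 4 each) gave a log2 fold change of 0.21 (SE 0.14, 95% interval -0.059 to 0.48, adjusted p = 0.876 in edgeR), which was 0.092 without Sd/Sd replicate 1. The neighbouring region from 147874231 to 147874742 had 27.2 ± 2.42 and 26.3 ± 4.16 CPM, with a log2 fold change of -0.034 (95% interval -0.35 to 0.29). The interval at the first region allows a rise of up to 1.39-fold and a fall to 0.960-fold in Sd/Sd, and that at the second a range from 0.782 to 1.22-fold.

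At higher coordinates than the gene, a group of 3 regions between 147937702 and 147948696 carried peaks in more Sd/Sd than WT libraries, and the Sd/Sd libraries also had more peaks over the genome (mean 25401 ± 3807 against 21564 ± 2617, SD, n = 4 each). The part of this in the peak calls here was not tested. The first of them, from 147937702 to 147937993, had 15.3 ± 1.51 CPM in WT libraries and 17.1 ± 3.13 in Sd/Sd ones, with peaks in 1 of 4 and 2 of 4 libraries. The second, from 147940383 to 147940718, had 16.7 ± 1.73 and 19.2 ± 2.46 CPM, with peaks in 2 of 4 and 4 of 4. The third, from 147947990 to 147948696, had 22.4 ± 2.81 and 25.7 ± 6.65 CPM with the same peak numbers, and Sd/Sd replicate 4, at 35.4 CPM, stood above the 19.5 to 26.1 CPM of the other 7 libraries. Their log2 fold changes of 0.17, 0.19 and 0.22 each had a 95% interval that included 0 (adjusted p = 0.962, 0.946 and 0.905 in edgeR), and without Sd/Sd replicate 4 the third was 0.0024. Without Sd/Sd replicate 3 the first was 0.052, and without WT replicate 3 the second was 0.13.

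The smallest p of the 19 regions was at 147908073 to 147908344, a short region of 272 bp. Its CPM was 6.66, 8.94, 5.22 and 9.08 for WT replicates 1 to 4 and 8.61, 13.6, 12.97 and 13.4 for Sd/Sd, from 15 to 56 counts per library. Sd/Sd replicates 2 to 4 lay above every WT library, while Sd/Sd replicate 1 lay within the WT range, so the genotypes overlapped. The means of 7.48 ± 1.87 and 12.1 ± 2.37 (SD, n = 4 each) gave a log2 fold change of 0.70 (SE 0.28, 95% interval 0.14 to 1.256), with an unadjusted p of 0.0147 and an adjusted p = 0.751 in edgeR. It therefore did not pass, and an unadjusted p under 0.05 was reached by 6.06% of all regions. Peaks were called in 0 of 4 WT and 2 of 4 Sd/Sd libraries, so only Sd/Sd peaks cover this counted region. Its choice was therefore not independent of the difference between genotypes.

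The largest difference in the other direction was at 147731506 to 147732407, with 28.4, 23.8, 26.4 and 27.8 CPM for WT replicates 1 to 4 and 16.7, 16.504, 25.03 and 27.5 for Sd/Sd. Sd/Sd replicates 1 and 2 were low, and replicates 3 and 4 lay within the WT range. The log2 fold change was -0.30 (SE 0.17, 95% interval -0.64 to 0.043, adjusted p = 0.860 in edgeR), from -0.46 without Sd/Sd replicate 4 to -0.19 without Sd/Sd replicate 1. The region of highest CPM, from 147701916 to 147703915, was also the widest, at 2000 bp, and its centre lay 169 kb from that of the first region at the gene. It had 51.6, 40.4, 34.4 and 39.8 CPM in WT libraries and 35.5, 40.5, 41.0 and 37.3 in Sd/Sd ones, with WT replicate 1 above all others. Its log2 fold change was -0.11 (95% interval -0.38 to 0.16, adjusted p = 0.959 in edgeR), and 0.014 without WT replicate 1.

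The remaining 6 regions of the Foxa2 window had log2 fold changes between -0.058 and 0.26. That from 147793705 to 147795293 was 0.12, and 0.013 without Sd/Sd replicate 4. The clearest by peak calls was from 147855349 to 147856434, with peaks in 1 of 4 WT and 4 of 4 Sd/Sd libraries. Its CPM was 32.2, 30.1, 32.0 and 25.2 in WT and 37.2, 34.3, 38.0 and 26.1 in Sd/Sd, a log2 fold change of 0.18 (95% interval -0.11 to 0.48, adjusted p = 0.911 in edgeR), which ran from 0.11 without WT replicate 4 to 0.29 without Sd/Sd replicate 4. The counts thus overlapped where the peak calls nearly separated the genotypes.

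No peak was called over Noto itself, as placed by background knowledge. The counted regions of its window lie on either side of the gene, and between 85330869 and 85381726, the 50.9 kb that hold the gene, none of the 8 libraries had a peak. The region from 85324306 to 85325214, towards Rab11fip5, had 39.1, 50.001, 41.1 and 37.2 CPM for WT replicates 1 to 4 and 38.9, 47.6, 36.5 and 41.9 for Sd/Sd. Both genotypes spanned about the same range, and peaks were called in 8 of 8 libraries, with a fold enrichment of 3.82 to 4.98. The region from 85381726 to 85382290, towards Smyd5, had 16.52, 20.9, 17.7 and 14.9 CPM in WT libraries and 15.6, 21.0, 16.9 and 16.03 in Sd/Sd ones, with peaks in 3 of 4 and 4 of 4 libraries. The log2 fold changes were -0.014 (95% interval -0.28 to 0.25) and -0.0069 (-0.41 to 0.40), with adjusted p = 0.997 and 0.999 in edgeR. One more site, from 85401010 to 85402540, had a peak in 8 of 8 libraries and a fold enrichment between 3.77 and 4.62, but it is absent from the counted regions, so its counts could not be compared.

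**Figure D1:**
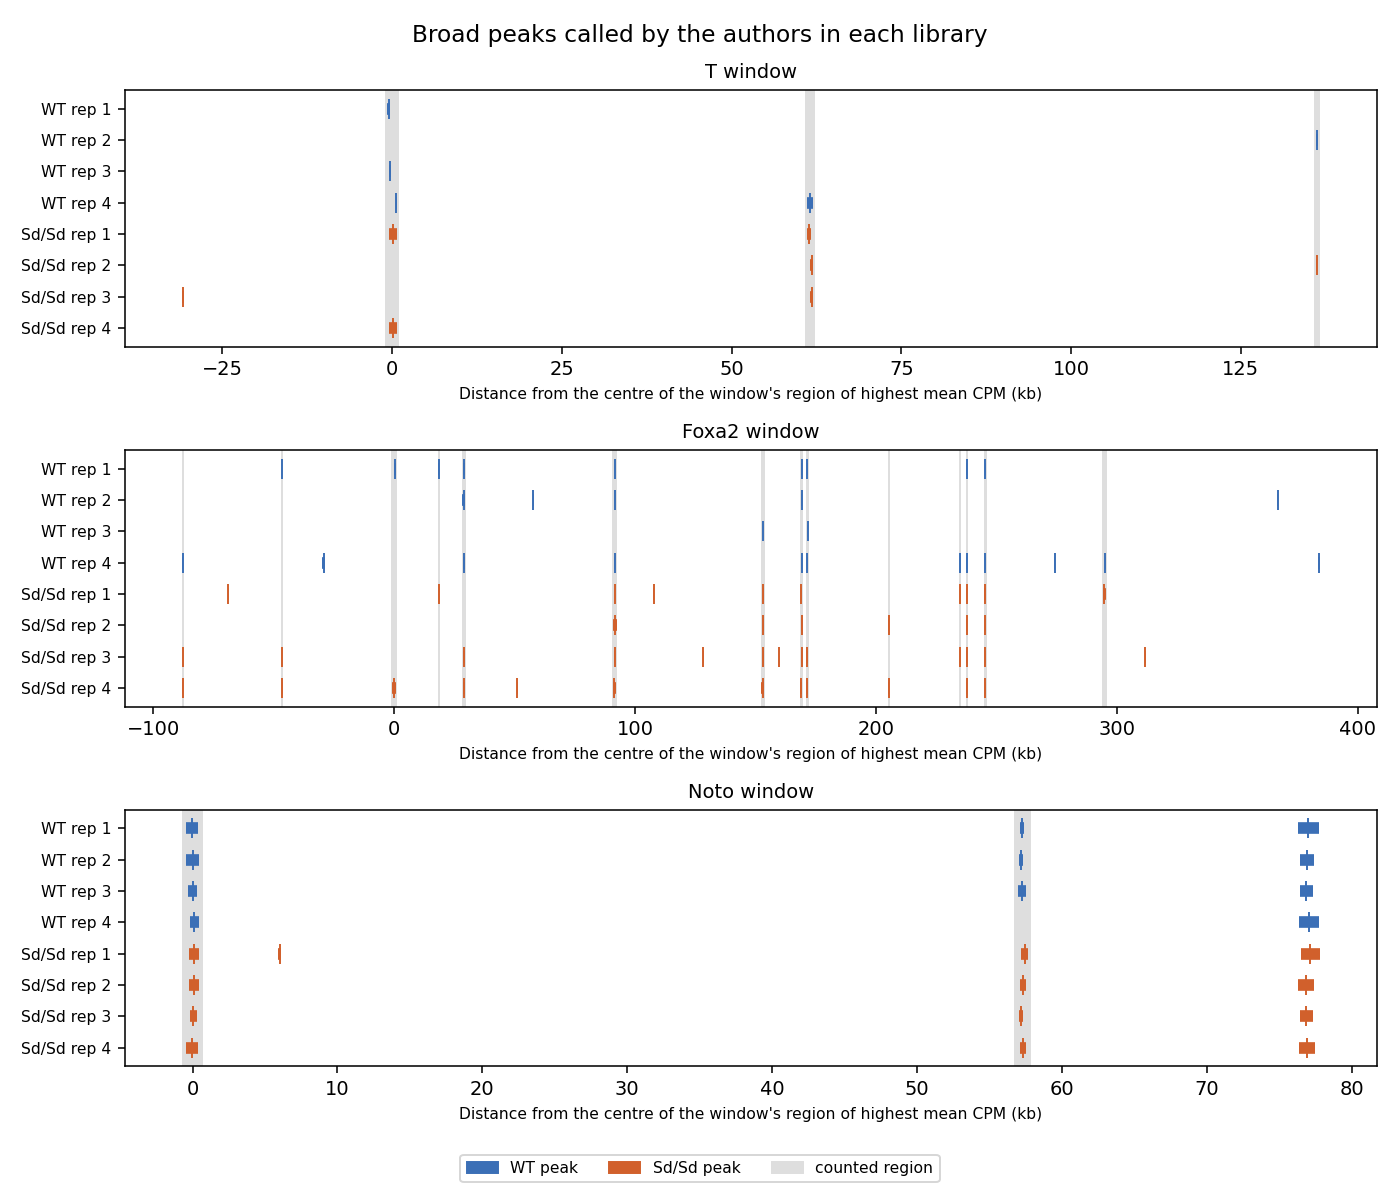
The authors' broad peaks of each library in the T, Foxa2 and Noto windows, drawn by distance in kb from the centre of the window's region of highest mean CPM, with a tick at each peak's centre. Grey bands are counted regions, widened slightly to be visible. The Noto panel shows 3 sites with peaks in 7 or 8 libraries and an empty stretch of 50.9 kb, while no T site had peaks in more than 5 libraries.

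Taking the 19 regions together, 0 passed an adjusted p of 0.05 in edgeR, where 0.0188% of all regions did, with 0.00751% higher and 0.0113% lower in Sd/Sd. DESeq2 and limma voom also called 0 of them, and 1 of the 19, higher in Sd/Sd, had an unadjusted p under 0.05 (6.06% of all regions, 2.98% higher in Sd/Sd). The libraries of the genotypes were separate at 0 of the 19 regions, against 3.2% of all regions (1.6% higher in Sd/Sd). In the fit, 12 regions had a log2 fold change above 0 and 7 below, with a median of 0.11, beside a median of 0.00060 over all regions. By window the median was 0.017 for T (2 above and 1 below 0), 0.14 for Foxa2 (10 and 4) and -0.010 for Noto (0 and 2). For 18 of the 19 regions the 95% interval stayed inside a 2-fold change up or down, as it did for 98.1% of all regions, and for 11 it lay within 1.5-fold, where 73.8% of all regions did. Without Sd/Sd replicate 4 the median over the 19 was 0.024, with 12 above and 7 below 0. Leaving out 1 library, the number of the 19 with an unadjusted p under 0.05 in edgeR was not steady. It ran from 0 without WT replicate 3 to 3 without Sd/Sd replicate 4, and the share of all regions in those fits is not given.

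**Figure D2:**
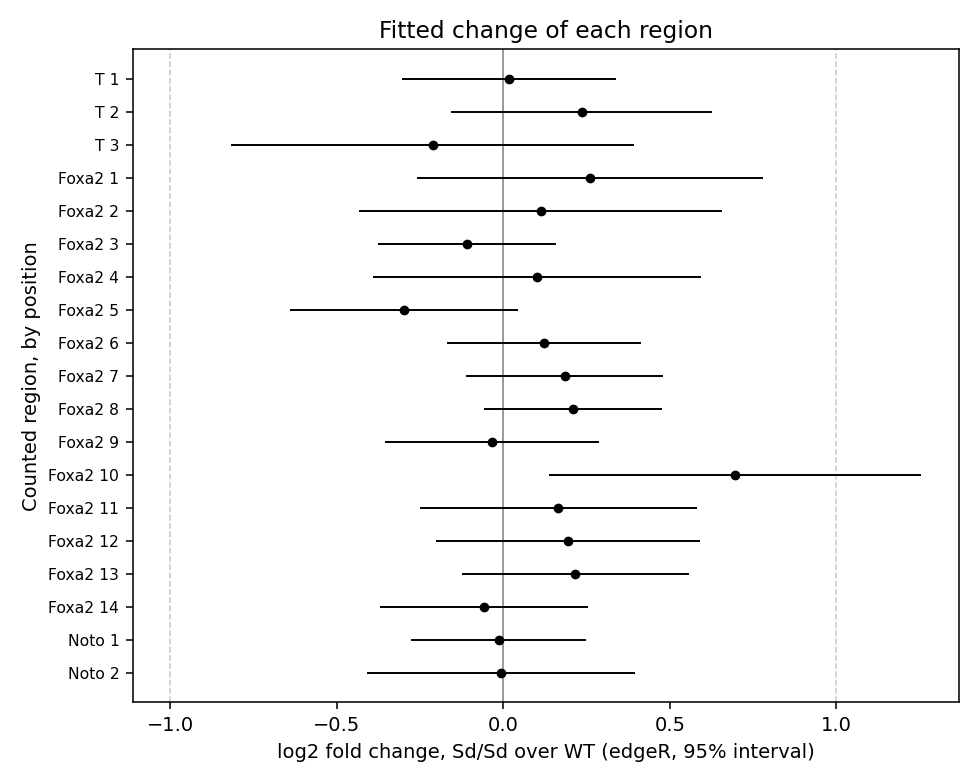
Fitted log2 fold change of each counted region (points) with its 95% interval (bars), Sd/Sd over WT, numbered by position within each window, with dashed lines at a 2-fold change. Only the interval of Foxa2 region 10 (147908073 to 147908344) excludes 0, and its adjusted p was 0.751 in edgeR.

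Summed over a window, levels overlapped between genotypes in all 3 windows. A sum also takes in counted regions away from the gene. That of the Noto window holds only the regions on either side of Noto, without the uncounted site, so it is no measure at the gene itself. The T window summed to 51.9, 53.0, 55.3 and 51.2 CPM for WT replicates 1 to 4 and 58.3, 61.8, 54.9 and 45.0 for Sd/Sd, a ratio of means of 1.04 (exact permutation test over 70 arrangements, two-sided, p = 0.629). The log2 ratio of 0.057 was 0.14 without Sd/Sd replicate 4. The 4 WT libraries lay within the wider range of the Sd/Sd libraries, with an SD of 1.80 against 7.26. The Foxa2 window summed to 315.26 ± 19.0 CPM in WT, from 295.42 to 335.54, and 333.1 ± 7.15 in Sd/Sd, from 326.19 to 340.87 (SD, n = 4 each), a ratio of 1.06 (exact permutation test, p = 0.143). WT replicates 2 and 3 were the low libraries of this sum. The Noto window summed to 59.4 ± 8.14 and 58.58 ± 6.95 CPM (SD, n = 4 each), a ratio of 0.987 (exact permutation test, p = 0.83), and replicate 2 was the highest library of each genotype. These 3 tests are unadjusted, and the smallest p they can give is 0.0286.

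**Figure D3:**
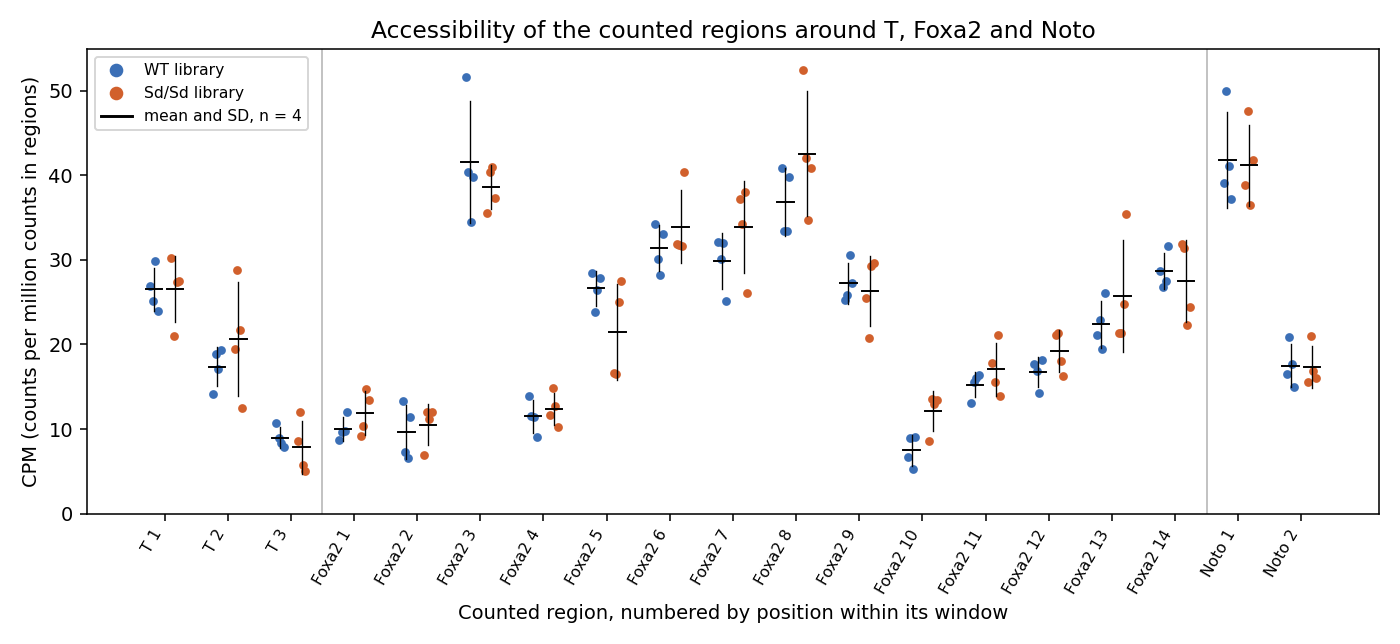
CPM of each counted region in the 8 libraries, 4 WT and 4 Sd/Sd, with the mean (horizontal bar) and SD (vertical line), numbered by position within each window. The genotypes overlap at 19 of 19 regions, and levels reach from 5.02 CPM (T region 3) to 52.5 CPM (Foxa2 region 8, at the gene).

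Per length, the regions ranged from 18.7 to 55.4 CPM per kb. The densest were Foxa2 regions, at 55.4 ± 8.48 CPM per kb from 147937702, 53.5 ± 7.05 from 147940383, 52.3 ± 6.23 from 147874231 and 50.1 ± 7.92 from 147871592 (SD over the 8 libraries). These 4 differed among themselves by less than their spread and lay between the 83.0 and 87.0 percentiles of all regions. The Noto window region towards Rab11fip5 followed at 45.7 ± 5.35 CPM per kb (78.4 percentile), within 1 SD of the lowest of those 4 but not of the highest. The next, the Foxa2 region from 147908073, was at 36.1 ± 11.7 over both genotypes, but at 27.5 ± 6.86 in WT and 44.6 ± 8.71 in Sd/Sd, so its place in this order differed between genotypes. At the other end stood the T region from 8564487, at 18.7 ± 2.16 CPM per kb (3.4 percentile). It was followed by the wide Foxa2 regions from 147701916 and 147793705 (20.0 ± 2.63 and 20.6 ± 2.28) and the region just before T at 21.9 ± 5.75 (11th percentile), all within 1 SD of their neighbours in this order. All 3 T regions lay below the median of all regions, which was 32.9 CPM per kb, as did 8 of 14 Foxa2 regions and 1 of 2 Noto regions.

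**Figure D4:**
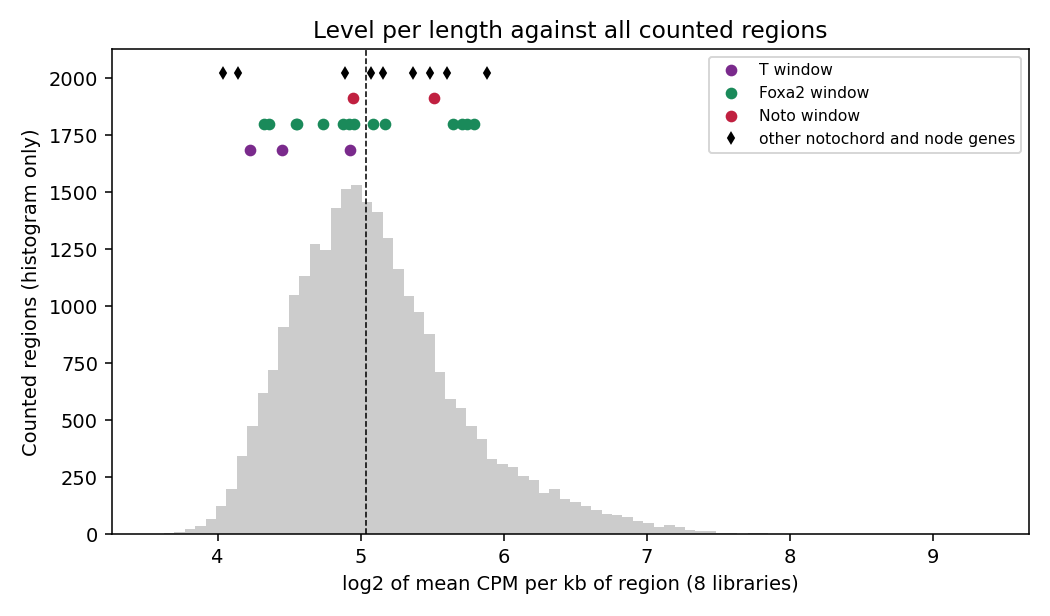
Histogram of log2 mean CPM per kb over all 26620 counted regions, with the regions of each window and of 5 other notochord and node genes as points above it (their height carries no value) and the median of all regions as a dashed line. The 3 T regions lie to the left of the median, and 6 of the 14 Foxa2 regions to its right.

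In the Foxa2 window 9, 5, 2 and 12 peaks were called for WT replicates 1 to 4 and 10, 6, 13 and 12 for Sd/Sd (mean 7 ± 4.397 and 10.25 ± 3.10, n = 4 each, exact permutation test, p = 0.257). WT replicate 3, with 2 peaks, had the smallest library total (2873918), and without it the difference in means fell from 3.25 to 1.58. When each library was limited to its 18682 top-ranked peaks, the difference in means was 2.75 (exact permutation test, p = 0.143). At 5 of the 14 regions 4 of 4 Sd/Sd libraries had a peak and at 0 of the 14 did 4 of 4 WT libraries, where over all regions the shares were 50.7% and 45.5%. In the T window 1, 1, 1 and 2 peaks were called in WT and 2, 2, 2 and 1 in Sd/Sd (exact permutation test, p = 0.486), and in the Noto window 3, 3, 3 and 2 and 4, 3, 3 and 3 (exact permutation test, p = 0.571). Merging the peaks of all libraries gave 33 intervals in the windows. Of these 19 overlapped counted regions, 13 were called in 1 library only, and the last was the uncounted Noto site called in 8.

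Other genes of the notochord and node were taken from a list of 7, with mm9 positions placed from background knowledge and 5 kb added on each side. At 5 of them lay 9 counted regions, of which 0 passed in either direction (edgeR, smallest adjusted p = 0.709), where 0.0188% of all regions did. An unadjusted p under 0.05 in edgeR was reached by 1 of the 9, beside 6.06% of all regions. The median log2 fold change of the 9 was -0.054, from -0.30 to 0.19, with 3 above and 6 below 0. The region of smallest p lay at Nog, which encodes a secreted BMP antagonist, from 89163232 to 89165018 of chromosome 11. It had 66.6 ± 5.42 CPM in WT and 53.6 ± 4.70 in Sd/Sd (SD, n = 4 each), and the genotypes overlapped. Its log2 fold change was -0.30 (SE 0.11, unadjusted p = 0.00738 and adjusted p = 0.709 in edgeR). The other Nog region, from 89159638 to 89161683, had a log2 fold change of -0.054 (unadjusted p = 0.628 in edgeR). Foxa1, the forkhead relative of Foxa2, had 4 regions, at the 58.7 to 89.1 percentiles in CPM per kb, and log2 fold changes from -0.015 to 0.19. Sox9, a factor of the notochord sheath and cartilage, had 1 region at 88.0 ± 7.88 and 83.7 ± 6.19 CPM. Chrd, a second BMP antagonist, and Foxj1, a factor of cilia formation, each had 1 region of low density, at 16.45 and 17.7 CPM per kb. At Shh, the signal secreted by the notochord, and Nodal, a ligand of the node, lay 0 counted regions, with a peak in 1 and 0 of the 8 libraries.

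The tissue label was checked on marker genes placed in the same way. Of the tailbud genes, Cdx2 had 4 regions and Tbx6 2, with a peak in 8 of 8 libraries, while Wnt3a had 0 regions and a peak in 0 of 8. T, also on the tailbud list, had a peak in 4 of 8 libraries at the region just before its start, at 21.9 CPM per kb. Of genes of other tissues, Myh6 of heart muscle had 0 regions and 0 peaks. Alb of liver had 1 region at 22.9 CPM per kb, with a peak in 5 of 8 libraries. Tal1 of blood had 3 regions at 47.1 to 54.2 CPM per kb and Kdr of endothelium 1, both with peaks in 8 of 8 libraries, and none of the regions of these 4 genes passed (adjusted p from 0.928 to 0.996 in edgeR). Their part in the results was not tested.

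The region of highest CPM in each window lay, by background knowledge, away from the gene. For each of these regions, the region outside the windows with the highest correlation over the 8 libraries was sought. It was on chromosome 14 from 121846242 to 121846644 for that of the T window (r = 0.963). For the Foxa2 window it was on chromosome 15 from 94459138 to 94460229 (r = 0.969), and for the Noto window on chromosome 10 from 113799408 to 113800790 (r = 0.965). These are the highest of 26601 correlations, each over only 8 libraries, and 32, 15 and 19 regions exceeded 0.9, so they single out no region.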

How the data were processed

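Per the labels, 8 ATAC-seq libraries of E9.5 tailbuds fall into 2 genotypes of 4. The authors deposited raw counts per region in shared mm9 regions; the thing counted (reads, fragments or Tn5 cuts) and any Tn5 shift are not stated. They also deposited broad peaks called per library, each with a score, a fold enrichment and −log10 p and q values. The submitters' processing notes name BWA 0.7.15-r1140, MACS2 2.1.1.20160309, bedtools 2.26.0 and the mm9 build. From the deposited counts, edgeR 4.0.16 was fitted on 26620 regions (quasi-likelihood, TMM, robust variance, filterByExpr, genotype as the only term), with Benjamini-Hochberg adjustment over all and a threshold of 0.05. DESeq2 1.42.0 and limma voom 3.58.1 were alternatives. Sums and peak numbers were compared by exact permutation tests, coded directly with NumPy 2.4.6 and checked on an example against SciPy 1.17.1. CPM is the count over the library's total over the regions, printed as mean ± SD. The scripts were tested on simulated data.

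Named with every library's value were, in each window, the regions of highest mean CPM, smallest p and largest absolute log2 fold change; other regions given that way were chosen after their values were seen. The windows, gene lists and motifs were chosen with earlier results of these data known. Same-numbered libraries of the genotypes correlated at 0.004, 0.008, -0.001 and 0.092 in their deviations from the group means. The value for replicate 4 was the highest of any WT and Sd/Sd pair, and pairs of unlike numbers ran from -0.047 to 0.02. The labels do not say what the numbers mark, so they were not taken as pairs, but pairing is not excluded. Counting error, spread between libraries and the number of libraries limit precision.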

Additional observations from a re-analysis of the deposited data

Results flagged for a closer look

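Of 50 groups of 4 libraries examined for a library far from the others (Dixon's 95% criterion, which chance passes in about 1 of 20 groups), 7 stood out. At the Foxa2 window region from 147656329 to 147656662, Sd/Sd replicate 1 had 6.943 CPM and the other Sd/Sd libraries 11.16 to 11.973. At the region from 147793705 to 147795293, Sd/Sd replicate 4 had 40.426 CPM and the others 31.669 to 31.939. At the region from 147908073 to 147908344, which had the smallest p of the 19, Sd/Sd replicate 1 had 8.61 CPM and the others 12.969 to 13.591. The other 4 were peak numbers, where a difference of 1 peak among equal values is enough. In the T window WT replicate 4 had 2 peaks against 1 in the other WT libraries, and Sd/Sd replicate 4 had 1 against 2. In the Noto window WT replicate 4 had 2 peaks against 3, and Sd/Sd replicate 1 had 4 against 3.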

How the results depend on the processing

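Under each of the 16 alternatives to the reported edgeR fit, 0 of the regions tested in the 3 windows passed, with a lowest adjusted p of 0.444 (147908073 to 147908344, without Sd/Sd replicate 1; 0.751 as reported). Leaving out 1 library moved the log2 fold change of that region between 0.57 and 0.83 and its unadjusted p between 0.00514 and 0.0596. It fell below a mean count of 50 and was not tested under that filter, which left 14 of the 19 regions. Over all regions the calls ranged from 2 to 23 around 5 as reported, with 15 without robust variance, 9 with limma voom, 3 with DESeq2, 23 under the replicate block and 2 to 19 when 1 library was left out. With same-numbered libraries taken as pairs, the replicate block gave log2 ratios of the window sums of 0.048 for T, 0.081 for Foxa2 and -0.017 for Noto. Without 1 library, the T sum ran from -0.0034 to 0.143 and the Noto sum from -0.104 to 0.0774. The Foxa2 sum was -0.107 with only its region of highest CPM and 0.106 without it (exact permutation p = 0.0571, and the same p at 0.111 without WT replicate 1), and the Noto difference in peaks was 0 with equal numbers of top-ranked peaks. Region values near 0 changed sign without 1 library: from -0.049 to 0.11 at 8564487 (-0.0020 with voom), -0.029 to 0.31 at 147656329, -0.19 to 0.014 at 147701916, -0.11 to 0.060 at 147874231, -0.14 to 0.029 at 147997123, -0.084 to 0.081 at 85324306 and -0.10 to 0.086 at 85381726 (0.00052 with voom). The causes were not tested. Regions held 15 to 189 counts per library.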
